A study of Rattus norvegicus with 6 samples.

Results

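Enzymes of fatty acid oxidation and ketone body metabolism were compared between adult and suckling rat pancreatic islets, the clusters of endocrine cells in the pancreas. The 35 genes were named by symbol and found through the RefSeq transcript that each array probe was designed on. All 35 had a probe, among 13903 genes that could be named on the array. RNA came from islets of adult male rats, 3 arrays, and from islets of pooled rats aged 10 days (P10), also 3 arrays, after collagenase digestion. The labels give neither a strain, nor the age of the adults, nor the sex of the pups. The labels name no treatment or genetic change in either group.

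Mitochondria shorten fatty acids by cycles of dehydrogenation, hydration, a further oxidation and thiolysis, each cycle releasing acetyl-CoA and electrons for the respiratory chain. Long chains are first activated to acyl-CoA and passed through the inner membrane as carnitine esters, a step blocked by malonyl-CoA. Ketone bodies are made from acetyl-CoA, chiefly in liver and, in suckling animals, also in intestine, and are burned elsewhere. Suckling animals live on fat-rich milk and adult laboratory rats mostly on carbohydrate. In beta cells, the insulin-secreting cells, fatty acid metabolism is known to bear on insulin secretion.

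Levels are log2 signals relative to the 75th percentile of each array, so 0 is a bright probe and a negative level a dimmer one. Levels of different probes are not comparable with each other. Changes are adult minus P10. Each member had 1 probe with 1 spot per array. Per array, 17932 to 18901 of 24684 probes exceeded background clearly (well above background in the scanner's call), and 0 were saturated. There was hardly any difference between adult arrays 2 and 3 that recurred between spots of the same probe (r of 0.07 across probes, against 0.84 and 0.88 for the pairs with adult array 1), and P10 arrays 1 and 2 likewise (0.05, against 0.14 and 0.25). Each of these pairs was averaged and counted as 1 sample, which leaves n = 2 per stage, although the labels name 3 rats and 3 pools. P10 array 3 also differed from P10 arrays 1 and 2 by no more than spot noise (observed over predicted variance 0.96 and 0.91). The 2 counted P10 samples may thus be technical replicates. Adult arrays 2 and 3 carry a different scan identifier from the other 4 arrays, so the spread between adults is also that between scans. Each scan is called a slide below, an inference from this identifier alone. With all 6 arrays as separate samples, 5 members were higher and 21 lower, over 33 with a usable spot on every array. That fit called 5307 probes higher and 7470 lower of 18109.

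In adults 17 of the 35 members were lower, 6 were higher and 12 did not pass the test (limma, Benjamini-Hochberg adjusted p under 0.05 over 18386 probes). One of the higher members, Acox2, entered the test through the adult arrays alone, and over the 34 members well above background on all 6 arrays 5 were higher and 17 lower. Of all 16160 probes tested under that filter, 3528 were higher and 4853 lower. In either direction 23 of 35 members passed, against 52.4% of all named genes. Lower calls made up 48.6% of the members and 28.7% of all named genes tested, and higher calls 17.1% of the members and 23.7% of named genes. At least 2-fold, 14 members were lower and 4 higher, 40% and 11.4%, against 20.7% and 15.9% of named genes. The median change was -0.81 over the members and -0.13 over 11430 named genes. With quantile normalization 16 were lower and 6 higher, against 27.2% and 30.0% of named genes, and the medians were -0.82 and 0.04. The spread at P10 rests on arrays that differed by little. When either counted P10 sample was left out, far fewer members passed, and far fewer of all probes tested. Such losses, given below for single genes, were thus not particular to the members. Acsl3, Acsl5, Acadl, Acadm, Etfb, Acaa2 and Acat1, all lower, and Acsl6 and Oxct1, both higher, kept their call in every alternative tried. Of the 12 members that did not pass, only Hadhb, Eci2, Pdk4 and Echs1 failed to pass in every alternative. The others passed in at least 1, in part only in fits with a single counted adult sample. Over the 33 members with a usable spot on every array, the adult and P10 arrays did not overlap for 29, which is common here, since it held for 78.1% of named genes.

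**Figure D1:**
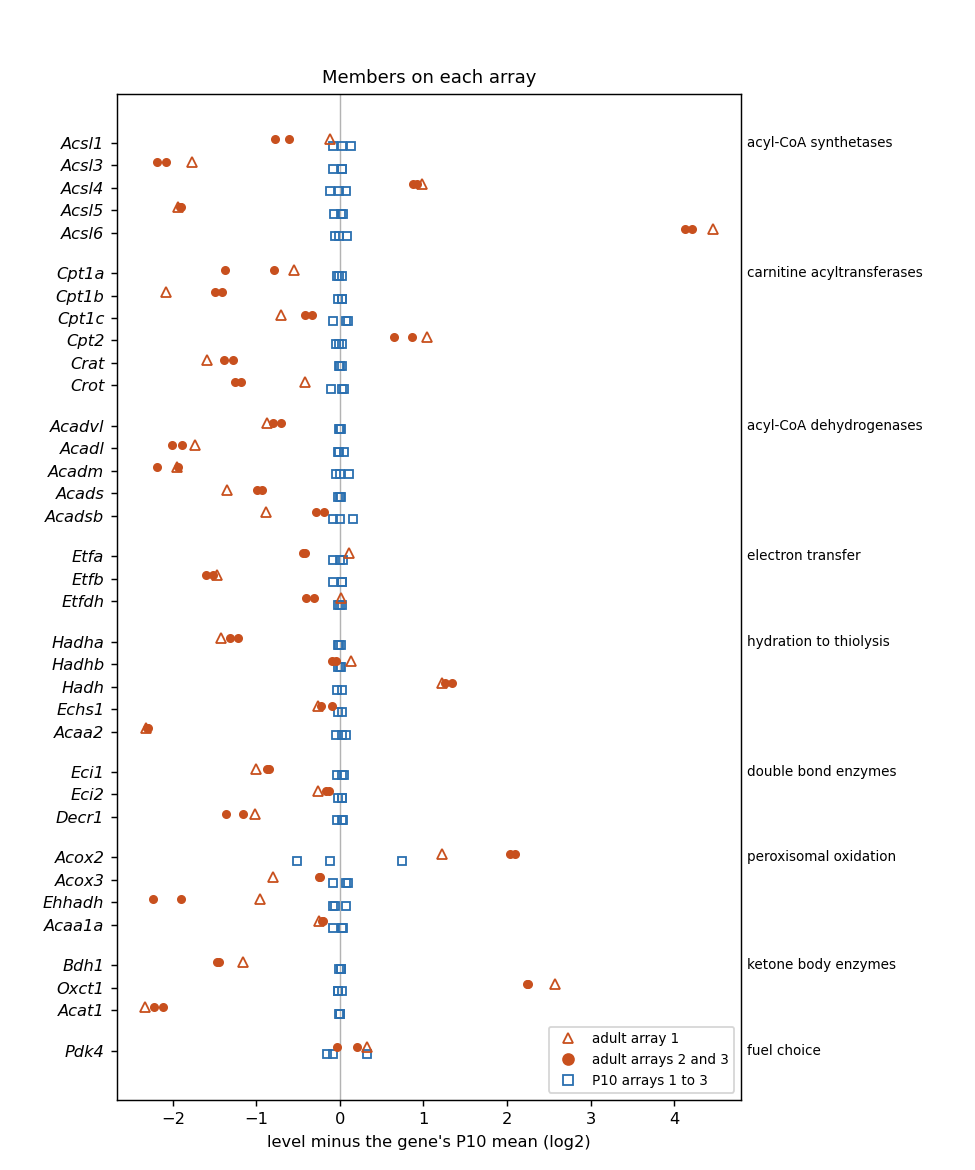
Level of each of the 35 members on each array, as the difference from the gene's mean at P10 (log2, horizontal axis), in order of role. Triangles are adult array 1, filled circles adult arrays 2 and 3, and squares the P10 arrays. The P10 squares lie close together for nearly all genes, most adult points lie to their left, and Acsl6 lies farthest to the right, at a change of 4.32.

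**Figure D2:**
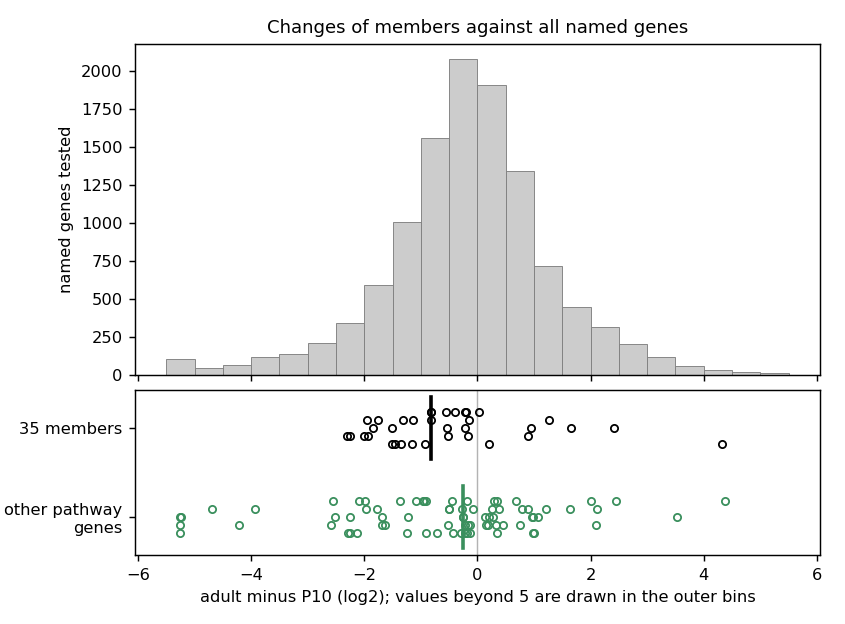
Changes of all named genes tested (histogram, upper panel, number of genes per 0.5 log2) and of the 35 members and 76 other pathway genes (points, lower panel, with a bar at the median), on the same log2 axis. The bar of the members stands at -0.81 and that of the other pathway genes at -0.25.

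RNA of other cell types differed between the same arrays, and in bulk tissue fewer cells of a type and less RNA per cell cannot be told apart. All 13 enterocyte markers tested, genes of the absorbing cells of the gut, were lower in adults, and their summed level was 3.32 to 3.42 on adult and 8.42 to 8.49 on P10 arrays (log2). Of the genes that define enterocytes, Apoa4 and Tm4sf5 were not well above background on any adult array and Fabp1 and Fabp2 on 1 of 3, so these 4 entered the test only through P10. Acinar markers, of the enzyme-secreting pancreas, fell for 13 of 15 (5 lower and 1 higher with quantile normalization), with sums of 9.54 to 10.1 and 11.1 to 11.2. Hepatocyte markers went both ways, 6 higher and 4 lower of 11 tested (sums 3.97 to 4.35 and 3.96 to 4.06), and Ahsg was not well above background on any array. Apoh entered the test only through the adult arrays and Hpx only through P10. All 9 leukocyte markers were higher in adults (5.67 to 5.86 against 2.89 to 3.58). Of these, Itgam and Cd79b were not well above background on any P10 array and entered the test only through the adult arrays. Of 7 beta cell markers 4 rose and 1 fell (8.04 to 8.52 against 8.36 to 8.51), and of 6 alpha, delta and PP cell markers 3 rose and 1 fell (8.0 to 8.23 against 8.04 to 8.17). With quantile normalization none of the markers in these endocrine lists was lower. The hormone genes Ins1, Gcg and Sst stood above the 99th percentile of signal at both stages. Duct markers gave 1 higher and 2 lower of 3 (3.71 to 3.84 and 3.62 to 3.68), striated muscle markers 2 and 3 of 5 (0.72 to 0.94 and 1.40 to 1.61), and adipocyte markers 1 and 1 of 3 (2.54 to 2.98 and 3.29 to 3.38). Of the muscle markers, Myh7 entered the test only through the adult arrays and Mb only through P10. The part of these differences in the changes below was not tested.

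Long-chain acyl-CoA synthetases, which activate fatty acids, went in both directions. Acsl6, the family member best known from brain, had levels of 0.74, 0.41 and 0.50 in adults and -3.63, -3.78 and -3.74 at P10, and was the member with the largest rise. The change was 4.32 (SE 0.16, limma adjusted p = 0.00131), which is 19.9-fold. With normexp background correction the change was 3.62. Every adult array lay far above every P10 array. Acsl3, an enzyme of the endoplasmic reticulum and lipid droplets, went the other way, with 0.70, 0.40 and 0.29 in adults and 2.40, 2.50 and 2.51 at P10, a fall of 1.96 (SE 0.18, limma adjusted p = 0.00371). Acsl5 is abundant in the intestinal epithelium, and its levels were 2.70, 2.74 and 2.72 in adults and 4.57, 4.68 and 4.65 at P10. It was lower in adults, at -1.93 (SE 0.13, limma adjusted p = 0.00207), with very little spread inside either stage. Acsl4, which prefers arachidonic acid, was higher in adults, at 0.94 (SE 0.14, limma adjusted p = 0.0101), a call that was lost without either P10 sample. Acsl1, the main synthetase of liver, fat and heart, stood at -0.40 (SE 0.25, limma adjusted p = 0.237) and did not pass. Adult array 1 lay near the P10 arrays for Acsl1 (1.20), and without that array, which leaves a single counted adult sample, the value was -0.69.

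Of the carnitine acyltransferases, which carry acyl groups across membranes as carnitine esters, 3 of 6 were lower and 1 higher. The malonyl-CoA-sensitive gate is encoded by Cpt1a in liver and many other tissues, by Cpt1b in muscle and by Cpt1c in brain. Cpt1b showed the largest difference of these genes, with -1.65, -0.98 and -1.06 in adults and 0.46, 0.45 and 0.41 at P10, a fall of 1.77 (SE 0.26, limma adjusted p = 0.00992). All adult arrays were below all P10 arrays, and adult array 1 was the lowest. Without the averaged P10 arrays 1 and 2 the limma adjusted p was 0.0502. For Cpt1a the levels were 2.08, 1.25 and 1.84 in adults and 2.59, 2.62 and 2.65 at P10, and the adults were spread over most of a log2 unit. Its change of -0.82 (SE 0.23, limma adjusted p = 0.0481) was close to the threshold and did not pass with median scaling (-0.52), with normexp background correction (-0.75), without a filter on dim probes (-0.82) or without either P10 sample. Cpt1c stood at -0.54 (SE 0.18, limma adjusted p = 0.0736) and did not pass, and its value was -0.70 on slide 1 alone. Slide 1 holds a single adult array, so a fit on slide 1 alone takes its spread from the P10 arrays, which differed by about spot noise. The same holds without adult array 1, where adult arrays 2 and 3 count as 1 sample. Cpt2, which returns acyl groups to CoA inside the mitochondrion, rose where the gate genes did not, at 2.58, 2.41 and 2.19 in adults and 1.49, 1.53 and 1.57 at P10. The rise was 0.90 (SE 0.16, limma adjusted p = 0.0163), lost without either P10 sample, and the arrays of the stages did not overlap. Crat handles short chains and acetyl groups, and its levels were 1.04, 1.36 and 1.25 in adults and 2.66, 2.64 and 2.63 at P10. It fell by 1.46 (SE 0.16, limma adjusted p = 0.00501), a call lost without either P10 sample. Crot, the peroxisomal octanoyltransferase, stood at -0.82 (SE 0.32, limma adjusted p = 0.0984), with adult array 1 at 0.80 and adult arrays 2 and 3 at -0.05 and 0.03. Its value was -1.22 without adult array 1 and -0.41 on slide 1 alone.

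The acyl-CoA dehydrogenases carry out the first oxidation, each for its own chain length, and 4 of 5 were lower in adults. Acadm, for medium chains, had levels of 1.26, 1.02 and 1.27 in adults and 3.31, 3.20 and 3.15 at P10. It fell by 2.00 (SE 0.14, limma adjusted p = 0.0022), or 4.01-fold. Acadl, for long chains, had 0.98, 0.70 and 0.82 in adults and 2.76, 2.70 and 2.69 at P10, a fall of 1.84 (SE 0.15, limma adjusted p = 0.00289). Both genes showed tight groups with a wide gap between the stages. Acads, for short chains, had 0.18, 0.54 and 0.61 in adults and 1.52, 1.55 and 1.54 at P10 and fell by 1.16 (SE 0.19, limma adjusted p = 0.0128). The very-long-chain enzyme gene Acadvl stood lower, at -0.81 (SE 0.13, limma adjusted p = 0.0128), or -0.51 with median scaling, where it did not pass. Acads and Acadvl also lost their calls without either P10 sample. Acadsb, which acts on branched short chains from isoleucine, stood at -0.56 (SE 0.27, limma adjusted p = 0.153) and did not pass. Its value was -0.88 on slide 1 alone, with its single adult array.

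Electrons from these dehydrogenases pass to the electron transfer flavoprotein, a pair of Etfa and Etfb subunits, and on to the oxidoreductase encoded by Etfdh. Only Etfb of these genes passed the test. Its levels were 1.1, 1.05 and 0.97 in adults and 2.48, 2.59 and 2.60 at P10, a fall of 1.51 (SE 0.13, limma adjusted p = 0.00328). Etfa, its partner subunit, had 3.05, 2.50 and 2.52 in adults and 2.85, 2.94 and 2.98 at P10 and stood at -0.16 (SE 0.23, limma adjusted p = 0.602), with the arrays of the stages overlapping. Etfdh stood at -0.17 (SE 0.18, limma adjusted p = 0.458), also with overlap. Adult array 1 lay above the P10 arrays for Etfa and among them for Etfdh, and adult arrays 2 and 3 lay below them for both. Without adult array 1, which leaves a single counted adult sample, the values were -0.42 and -0.36. The difference in change between Etfa and Etfb was not tested.

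The subunits of the trifunctional protein, which completes the cycle for long chains, are encoded by neighbouring genes read in opposite directions. Their RefSeq start sites are 300 bases apart in the GRCr8 assembly, so the promoter windows of 250 bases before to 50 after each start share 200 bases, printed in capitals because they lie upstream of both genes. The first window is chr6:31907551-31907850 on the plus strand and the second chr6:31907451-31907750 on the minus strand, each written in the direction of its gene.
Hadha: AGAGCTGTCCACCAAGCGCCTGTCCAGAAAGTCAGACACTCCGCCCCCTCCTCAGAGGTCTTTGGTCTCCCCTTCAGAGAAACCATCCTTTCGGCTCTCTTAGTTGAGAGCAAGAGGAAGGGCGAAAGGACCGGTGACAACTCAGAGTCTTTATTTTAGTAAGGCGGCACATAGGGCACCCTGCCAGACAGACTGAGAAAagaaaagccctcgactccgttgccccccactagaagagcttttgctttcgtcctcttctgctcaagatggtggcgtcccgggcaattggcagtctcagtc
Hadhb: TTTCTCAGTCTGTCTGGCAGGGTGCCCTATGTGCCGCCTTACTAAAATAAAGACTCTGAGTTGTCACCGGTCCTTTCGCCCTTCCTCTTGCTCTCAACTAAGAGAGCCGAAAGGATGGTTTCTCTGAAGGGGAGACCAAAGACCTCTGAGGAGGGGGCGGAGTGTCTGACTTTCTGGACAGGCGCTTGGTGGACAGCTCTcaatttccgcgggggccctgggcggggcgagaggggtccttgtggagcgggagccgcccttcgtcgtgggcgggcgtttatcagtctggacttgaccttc
The shared stretch has a GC content of 53.5% and holds neither motif searched.

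Although they share this stretch, the probes of both subunits gave different values. Hadha, the subunit with the hydratase and dehydrogenase activities, had 0.70, 0.90 and 0.82 in adults and 2.12, 2.11 and 2.14 at P10, a fall of 1.35 (SE 0.14, limma adjusted p = 0.00454). The call was lost without either P10 sample, at adjusted p-values of 0.065 and 0.066, while the value hardly moved. Hadhb, the thiolase subunit, had 4.29, 4.06 and 4.12 in adults and 4.17, 4.13 and 4.16 at P10 and stood at 0.03 (SE 0.15, limma adjusted p = 0.876). Its arrays overlapped, and its change stayed between -0.07 and 0.33 in every alternative and did not pass in any. The difference between the subunits was not tested.

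Other enzymes of the later steps also divided. Acaa2, the mitochondrial thiolase, showed the largest fall of any member, with 2.05, 2.06 and 2.07 in adults and 4.40, 4.45 and 4.32 at P10. It fell by 2.31 (SE 0.13, limma adjusted p = 0.00172), which is 4.97-fold. The adult arrays were almost identical to each other and far below P10. Hadh, the dehydrogenase for medium and short chains, is known for its high level in beta cells, where its loss causes excess insulin secretion. Its levels were 5.65, 5.77 and 5.69 in adults and 4.46 and 4.40 on P10 arrays 1 and 3, with the spot on P10 array 2 discarded as an outlier. The rise was 1.26 (SE 0.13, limma adjusted p = 0.00471). Quantile normalization gave 1.92, and the rise did not pass without either P10 sample. Hadh stood at the 99.4 percentile of signal in adults and 97.3 at P10. Echs1, the short-chain hydratase, stood at -0.21 (SE 0.13, limma adjusted p = 0.245), with the spot on P10 array 2 discarded as well.

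Unsaturated fatty acids need auxiliary enzymes, and 2 of these 3 were lower. Decr1, the mitochondrial dienoyl-CoA reductase, had 2.51, 2.17 and 2.36 in adults and 3.55, 3.56 and 3.50 at P10, a fall of 1.14 (SE 0.16, limma adjusted p = 0.00845). All adult arrays lay below P10. The isomerase gene Eci1 stood lower, at -0.93 (SE 0.14, limma adjusted p = 0.0102), and Eci2, at -0.21 (SE 0.14, limma adjusted p = 0.263), did not pass. The calls of Decr1 and Eci1 were lost without either P10 sample.

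Peroxisomes shorten very long, branched and bile acid side chains. Acox2, the oxidase for branched chains and bile acid intermediates, had -4.74, -3.87 and -3.92 in adults and -5.22, -6.47 and -6.08 at P10. Its P10 signals were dim, well above background on 2 of 3 arrays. The probe entered the test only through the adult arrays, where it was brighter, so its difference of 1.65 is given as a description. The difference was 0.14 with normexp background correction. Ehhadh, the peroxisomal bifunctional enzyme and a classic target of the receptor PPAR-alpha, had -2.72, -3.67 and -4.01 in adults and -1.85, -1.83 and -1.70 at P10. It stood at -1.51 (SE 0.42, limma adjusted p = 0.0472), close to the threshold, with the widest spread between adults of all members. Its value was -0.95 with slide 1 alone and -2.07 without adult array 1, and it did not pass with quantile normalization (-1.38), with median scaling (-1.21), with the deposited normalized values (-1.38), without a filter on dim probes (-1.51) or without either P10 sample. Acox3, another oxidase for branched chains, stood at -0.52 (SE 0.24, limma adjusted p = 0.145) and did not pass. Its value was -0.80 on slide 1 alone, with its single adult array. The thiolase gene Acaa1a stood at -0.23 (SE 0.13, limma adjusted p = 0.208).

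**Figure D3:**
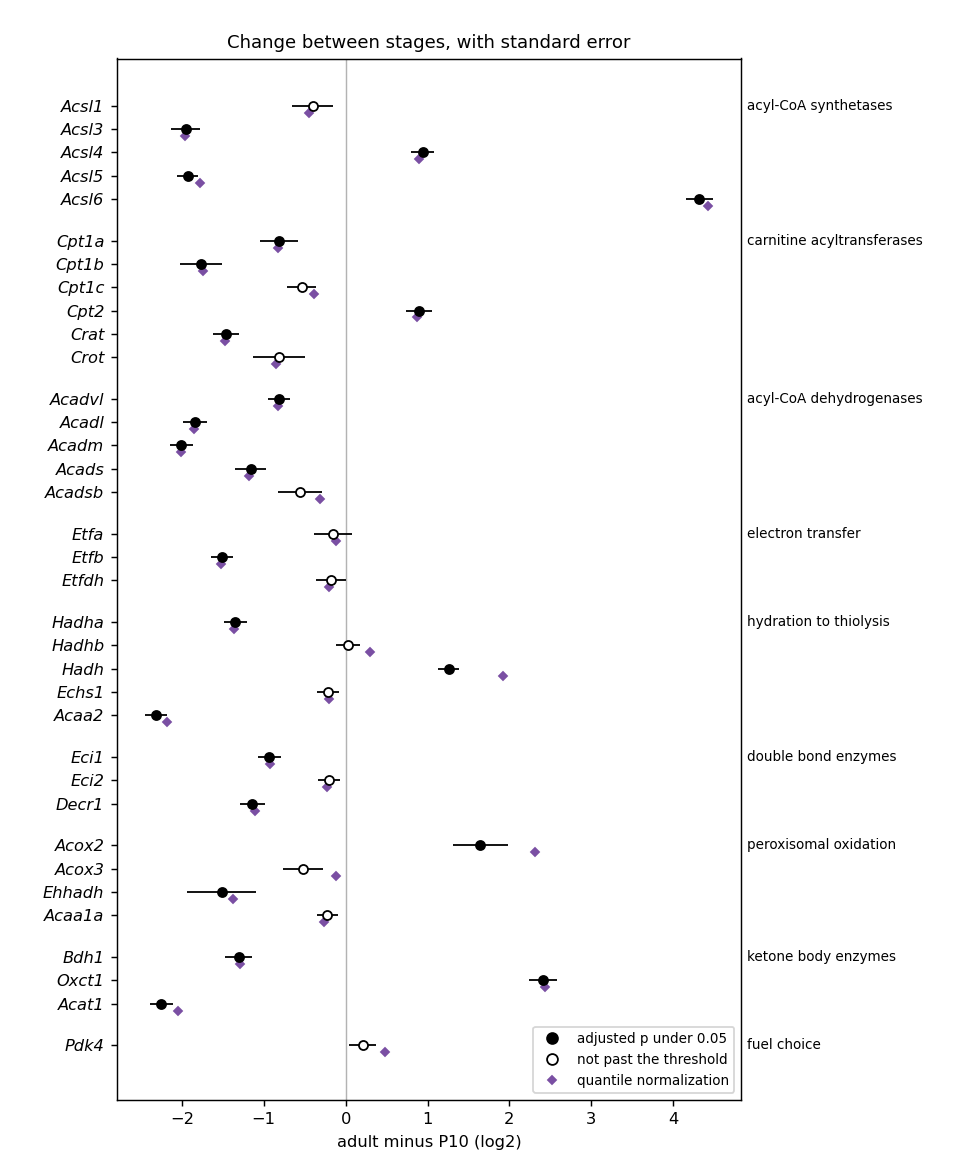
Change of each member between stages (adult minus P10, log2, horizontal axis) with its standard error. Filled circles passed the test, open circles did not, and diamonds give the value with quantile normalization. The diamonds lie near the circles except for Hadh, Acox2 and Acox3, and no called member changed sign.

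All 3 ketone body enzymes among the members changed, in different directions. Oxct1 encodes the CoA transferase that commits acetoacetate to oxidation in tissues other than liver. Its levels were 3.59, 3.25 and 3.27 in adults and 0.99, 0.99 and 1.04 at P10. Oxct1 rose by 2.41 (SE 0.17, limma adjusted p = 0.00235), or 5.31-fold. Acat1, the mitochondrial acetoacetyl-CoA thiolase, which acts next in ketone body use and also in isoleucine breakdown, had 2.64, 2.74 and 2.85 in adults and 4.97, 4.97 and 4.98 at P10. It fell by 2.25 (SE 0.14, limma adjusted p = 0.00188), the second largest fall of the members, and the P10 arrays agreed closely. Bdh1, which interconverts beta-hydroxybutyrate and acetoacetate, had -1.25, -1.54 and -1.56 in adults and -0.08, -0.08 and -0.10 at P10. It was lower in adults, at -1.31 (SE 0.17, limma adjusted p = 0.00726), a call lost without either P10 sample. Adult and P10 arrays were apart for all 3.

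Other short-chain and ketone body genes, from a list of 11 of which 8 were named on the array, gave 1 higher and 5 lower. These are 12.5% and 62.5%, against 23.7% and 28.7% of all named genes. The lower calls include Hsd17b10, a short-chain dehydrogenase gene of isoleucine breakdown, at -1.25 (SE 0.21, limma adjusted p = 0.0139), named after its values were seen. For Hsd17b10 the spot on P10 array 2 was discarded as an outlier. Bdh2, a cytosolic relative of Bdh1, was lower, at -4.69 (SE 0.30, limma adjusted p = 0.00195), or -2.93 with normexp. Aacs, which activates acetoacetate for lipid synthesis in the cytosol, rose together with Oxct1, at 3.06, 2.50 and 2.57 in adults and 0.61, 0.69 and 0.77 at P10. The rise was 2.09 (SE 0.23, limma adjusted p = 0.00528). The monocarboxylate carrier genes Slc16a1 and Slc16a7, named after their values were seen, stood at -2.56 (SE 0.14, limma adjusted p = 0.00156) and -3.93 (SE 0.13, limma adjusted p = 0.00131). Slc16a1 imports lactate and ketone bodies and is usually silent in mature beta cells.

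**Figure D4:**
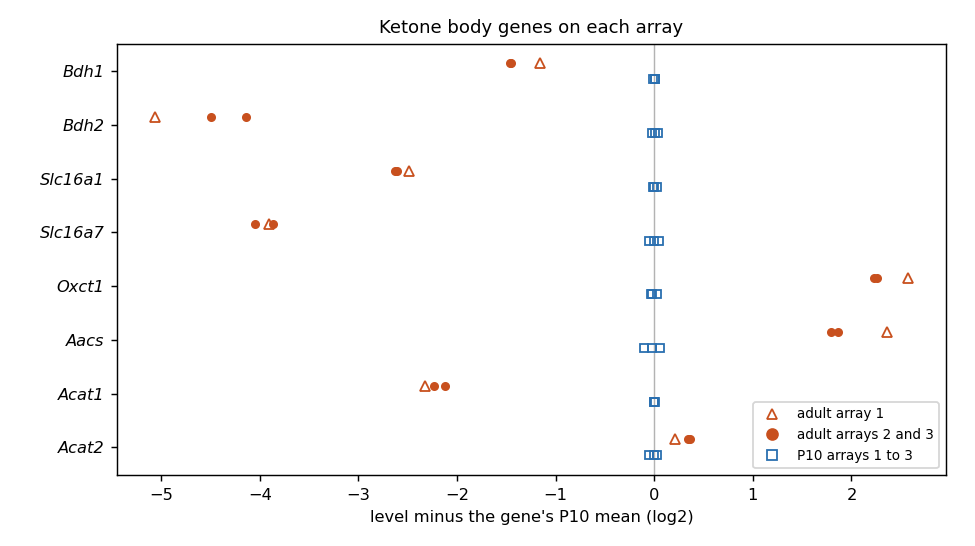
Ketone body genes on each array, as the difference from the gene's mean at P10 (log2, horizontal axis), with adult array 1 as triangles, adult arrays 2 and 3 as filled circles and P10 arrays as squares. Oxct1 and Aacs lie to the right of P10, Acat2 lies near it and did not pass, and Bdh1, Bdh2, Slc16a1, Slc16a7 and Acat1 lie to its left.

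Pdk4, the kinase that shuts off pyruvate oxidation when fat is burned, is a common marker of fasting and fat feeding. Its levels were -3.43, -3.79 and -3.54 in adults and -3.90, -3.43 and -3.84 at P10. The stages overlapped. The change of 0.21 (SE 0.17, limma adjusted p = 0.34) did not pass in any alternative, between -0.14 and 0.51.

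Over 76 other pathway genes tested of 96 listed, 16 were higher and 28 lower, with a median of -0.25. These are 21.1% and 36.8%, against 23.7% and 28.7% of all named genes, whose median was -0.13. Over the 73 well above background on all 6 arrays, 16 were higher and 26 lower, against 3528 and 4853 of all 16160 probes tested under that filter. The group counts below are small and stand against the same shares of named genes. In the group for uptake of fatty acids and carnitine 1 was higher and 4 were lower of 8. Slc22a5, the carnitine importer of the plasma membrane, had -0.53, -0.28 and -0.27 in adults and 1.64, 1.69 and 1.51 at P10, a fall of 1.99 (SE 0.17, limma adjusted p = 0.00302). Slc25a20, which exchanges acylcarnitine for carnitine across the inner membrane beside Cpt2, had 2.71, 2.92 and 2.92 in adults and 1.85, 1.97 and 1.94 at P10. Like Cpt2 it was higher in adults, at 0.89 (SE 0.15, limma adjusted p = 0.0134), and lost its call without either P10 sample. Slc27a2, a fatty acid transporter of liver, kidney and gut, fell by 6.68 (SE 0.23, limma adjusted p = 0.00131). With normexp its change was -5.4. Slc27a5 was listed in this group but was too dim to be tested.

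Synthetases outside the long-chain family gave 4 higher and 3 lower of 9. Acsm3, for medium chains, was higher, at 2.44 (SE 0.15, limma adjusted p = 0.00184), or 0.86 with normexp (limma adjusted p = 0.077). Acss2, which activates acetate in cytosol and nucleus, rose by 2.12 (SE 0.14, limma adjusted p = 0.00218), with the spot of adult array 3 discarded. Of 8 thioesterases, which undo the activation, 0 were higher and 2 lower, with Acot1, a cytosolic enzyme induced by PPAR-alpha, at -5.23 (SE 0.28, limma adjusted p = 0.0016). With normexp Acot1 stood at -3.82. The other lower call, Acot12, was not well above background on any adult array and entered the test only through P10. Acot1 has close paralogs that one probe may also detect. Other peroxisomal genes gave 3 higher and 2 lower of 13. Malonyl-CoA and fuel choice genes gave 3 higher and 3 lower of 10, and other acyl-CoA dehydrogenases 0 and 1 of 4.

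Transcriptional regulators of the pathway gave 4 higher and 8 lower of 16. Creb3l3, a factor of liver and intestine that drives fasting genes, had -7.64, -6.58 and -6.80 in adults and 1.64 and 1.61 on P10 arrays 2 and 3, with the other P10 spot discarded. It was well above background on 2 of 3 adult arrays and entered the test only through P10, so its difference, -8.79 or -6.17 with normexp, is given as a description. Ppara, which encodes PPAR-alpha, was dim at both stages and well above background on 1 of 3 P10 arrays. It stood at -0.90 (SE 0.40, limma adjusted p = 0.133) and, with quantile normalization, at 0.15 (limma adjusted p = 0.781). The coactivator gene Ppargc1a was not well above background on any array. Ppard, the most widely expressed PPAR gene and named here after its values were seen, had 0.25, 0.01 and -0.02 in adults and 2.01, 2.08 and 2.12 at P10, a fall of 1.96 (SE 0.16, limma adjusted p = 0.00286). Esrrb, an orphan receptor of the ERR family, rose by 4.37 (SE 0.42, limma adjusted p = 0.00404), and Rxra, the partner receptor of the PPARs, by 3.53 (SE 0.47, limma adjusted p = 0.00816), or 1.85 with normexp.

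Promoter sequences were present in the RefSeq table for 30 of the 35 members. A direct repeat bound by PPAR, RXR and HNF4 receptors (2 AGGNCA half-sites with any 1 base between) was found on either strand in 0 of these 30 windows and in 0.415% of 33469 windows in the table. The element of the ERR family (TNAAGGTCA) was found in 0 of 30 and in 1.198% of all. These letters are thus absent from windows of 300 bases, which says nothing of sites elsewhere. With shares this low among all windows, 0 matches in 30 does not set the members apart from other genes. The promoters of Cpt1b, Cpt1c, Acadl, Acaa2 and Decr1 were not analysed here.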

How the data were processed

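Each sample was hybridised to its own 1-colour Agilent array, a design that covers mRNAs as well as long non-coding RNAs. Spot intensity values come from the deposited scanner files. The submitters' processing notes name Agilent Feature Extraction 11.0.1.1, and per the file headers the processed intensity is background-subtracted and detrended, with no scaling across arrays. The authors' deposited tables of normalized log2 values, with no method stated, were the same to 0.05 as quantile-normalized processed intensity in 98.77% of entries. They held 32 of the 35 members.

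Control and outlier spots were left out, spots of a probe were averaged as log2 values, and each array's 75th percentile was subtracted. RefSeq accessions were matched without versions to a GRCr8 gene table, which named 14294 of 24684 probes. Coordinates are given for the promoter windows alone, since the design of the array rests on an earlier assembly. The brightest probe of a gene was used. A probe was tested where every one of the 3 arrays of a stage, adult or P10, had it well above background, 18386 in all. The test was limma 3.58.1 (lmFit, eBayes; R 4.3.3), with adjusted p-values being Benjamini-Hochberg over all of them at 0.05. The fit was checked on simulated data.

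All members had to pass this filter and did; 34 were well above background on all 6 arrays. The observed variance over that predicted by spot noise was 1.18 for adult arrays 2 and 3, against 15 and 18 for the other adult pairs, and 0.76 for P10 arrays 1 and 2, against 0.91 and 0.96. P-values measure the spread between these samples, which may be technical, and the number of arrays limits their precision.

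The members and gene lists were chosen with earlier results of these data known. Values per array are given for members past the threshold with a change of at least 1 log2, with others added where a family or complex is described. Of other pathway genes the 5 largest rises and falls and a few preset genes are named, except that some results for single genes are not reported here. Normexp used the median spot signal, since the scanner files used here have no mean signal. Marker lists were those of enterocytes, acinar cells, hepatocytes, beta cells, alpha, delta and PP cells, leukocytes, adipocytes, striated muscle and ducts.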

Additional observations from a re-analysis of the deposited data

How the results depend on the processing

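Counts of lower and higher members stayed within 1.5 times of 17 and 6 under the alternatives tried, other than leaving out a counted P10 sample. Leaving out each counted sample in turn gave 7 to 21 lower and 2 to 6 higher members, 19 to 37 lower and 6 to 22 higher other pathway genes, and a median change of the members of -0.81 to -0.76. A stage left with 1 sample was assumed to vary like the other. The median was -0.90 with all 6 arrays as separate samples, -0.51 with median scaling and -0.76 with normexp. Normexp also called 9 other pathway genes higher. Of all 18386 probes it called 2130 higher, against 3914 in the main fit. The cause was not tested. No called member changed sign in any alternative. The median change of all probes was -0.23, -0.02 with quantile normalization, 0.07 with median scaling and -0.39 with normexp. Slide as a block, fitted in effect on slide 1 with its single adult array, gave a median change of the members of -0.8. It called more members lower than the main fit, and also more of all probes.

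Replicate numbers did not pair the samples, as deviations of same-numbered arrays correlated at -0.21, 0.08 and -0.24. With all 6 arrays and a replicate block, 20 members were lower and 5 higher, with a median of -0.90. Of 18109 probes, that fit called 6786 lower and 4713 higher. Of the 17 lower and 6 higher members, 7 and 2 kept their call throughout. Levels of Acox2 and Ppara at P10 lay near background, which limits their values.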

Other observations

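The pathway list also held genes around malonyl-CoA, the metabolite that blocks the carnitine gate, and pyruvate entry, named here after their values were seen. The acetyl-CoA carboxylase genes Acaca and Acacb, which make malonyl-CoA, stood at -2.51 (SE 0.50, limma adjusted p = 0.0203) and -2.58 (SE 0.19, limma adjusted p = 0.00248), at the 20.3 and 6.08 percentile of signal in adults, and Mlycd, which removes it, at -0.13 (SE 0.22, limma adjusted p = 0.649). Pdk1, a pyruvate dehydrogenase kinase gene induced by hypoxia, had 0.09, -0.43 and -0.39 in adults and 1.91, 1.99 and 1.92 at P10, lower in adults by 2.09 (SE 0.22, limma adjusted p = 0.00477). The mitochondrial uncoupling protein gene Ucp2 was higher, at 1.63 (SE 0.27, limma adjusted p = 0.0127). Pparg, the receptor gene of fat cells, was measured by 3 probes, which gave -1.24, -1.21 and -1.35. Of the 2 probes of Pdk3, the brighter stood at 0.97 (limma adjusted p = 0.0112) and the other at 0.48 (limma adjusted p = 0.245).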
